A study of Mus musculus with 6 samples.

Results

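Homologous recombination and the Fanconi anemia pathway were followed through 42 genes of the P1 mouse cerebellum, among 54532 genes in the count table. The genes were taken by symbol: every row whose gene name was on the list of recombination, Fanconi, checkpoint and mismatch repair genes was used. The rule reads no measured value, but the list itself was chosen with earlier results of these data known. All 42 symbols were found, and all 42 passed the filter on low counts, as did 17505 genes in all. They were sorted by repair route into 8 groups, also with earlier results of these data known.

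The libraries were poly(A) RNA of whole cerebella from control littermates (*Tox3f/f*, 3 libraries) and from conditional knockout mice (*Nestin-cre;Tox3f/f*, 3 libraries). Both groups carry the floxed *Tox3* alleles, which Cre recombinase removes, and every mutant but no control carries the *Nestin-cre* transgene, active in neural cell types, so the loss of *Tox3* and the presence of the transgene cannot be told apart. All animals were at postnatal day 1 (P1), an age at which granule neuron progenitors (GNPs) divide in the outer layer of the cerebellum. Each library stands for 1 sample of the labels. The labels do not say whether cerebella were pooled, so the p-values measure only the spread between these samples.

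Homologous recombination repairs a broken chromosome by copying the sister chromatid, and therefore works mainly in cells that are replicating their DNA or have done so. The MRE11-RAD50-NBN complex, CtIP (encoded by *Rbbp8*) and EXO1 trim the break to single-stranded DNA, BRCA1 with BARD1 and PALB2 brings in BRCA2, after which strand exchange with the sister chromatid begins. The Fanconi pathway deals with crosslinks between the DNA strands: a core complex attaches ubiquitin to FANCD2 and FANCI, and the recombination proteins finish the repair. Dividing neural progenitors are known to depend on these routes, whereas neurons that have left the cell cycle repair breaks mainly by end joining.

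In the libraries labelled mutant, 16 of the 42 genes fell, where 3.63% of all tested genes did, and 0 rose, where 3.03% did. The falls include *Brca1*, *Brca2* and their partners *Bard1* and *Palb2*. DESeq2 called 18 lower and 0 higher, beside 626 lower and 575 higher among all 17505 tested genes. A gene was called when its log2 fold change passed 0.5 in size and its p, from edgeR's quasi-likelihood test and adjusted by Benjamini-Hochberg over all 17505 genes tested, was below 0.01. The median log2 fold change of the 42 genes was −0.58, against −0.01 over all tested genes. Without the fold threshold 17 passed with a lower level (7.24% of all tested genes), and 33 of 42 had an unadjusted p under 0.05, all of them with a lower level (19% of all tested genes, and 37.1% in either direction). In 28 genes every mutant library was below every control library (20.1% of all tested genes), in 0 every mutant library was above (20.4% of all tested genes), and in 14 the groups overlapped. *Rad51b* and *Mus81* alone had a fold change above 0. The count of 16 became 9 without control replicate 2 and 9 without mutant replicate 3, and the median was −0.50 and −0.49 in those fits. The count of 17 became 9 and 10 without the same libraries and 11 without mutant replicate 1.

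The summed level of the 42 genes was 1205, 1310 and 1252 CPM (counts scaled to a common library total by TMM) in the 3 control libraries and 845, 914 and 847 CPM in the 3 mutant libraries, that is 30.8% lower. The median log2 ratio of the genes to their control mean was −0.04, 0.04 and −0.003 in the controls and −0.50, −0.48 and −0.61 in the mutants, with a pooled SD within groups of 0.056. No mutant library came near the controls on either measure. In bulk tissue, fewer cells that express a gene and less RNA of it per cell cannot be told apart.

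**Figure D1:**
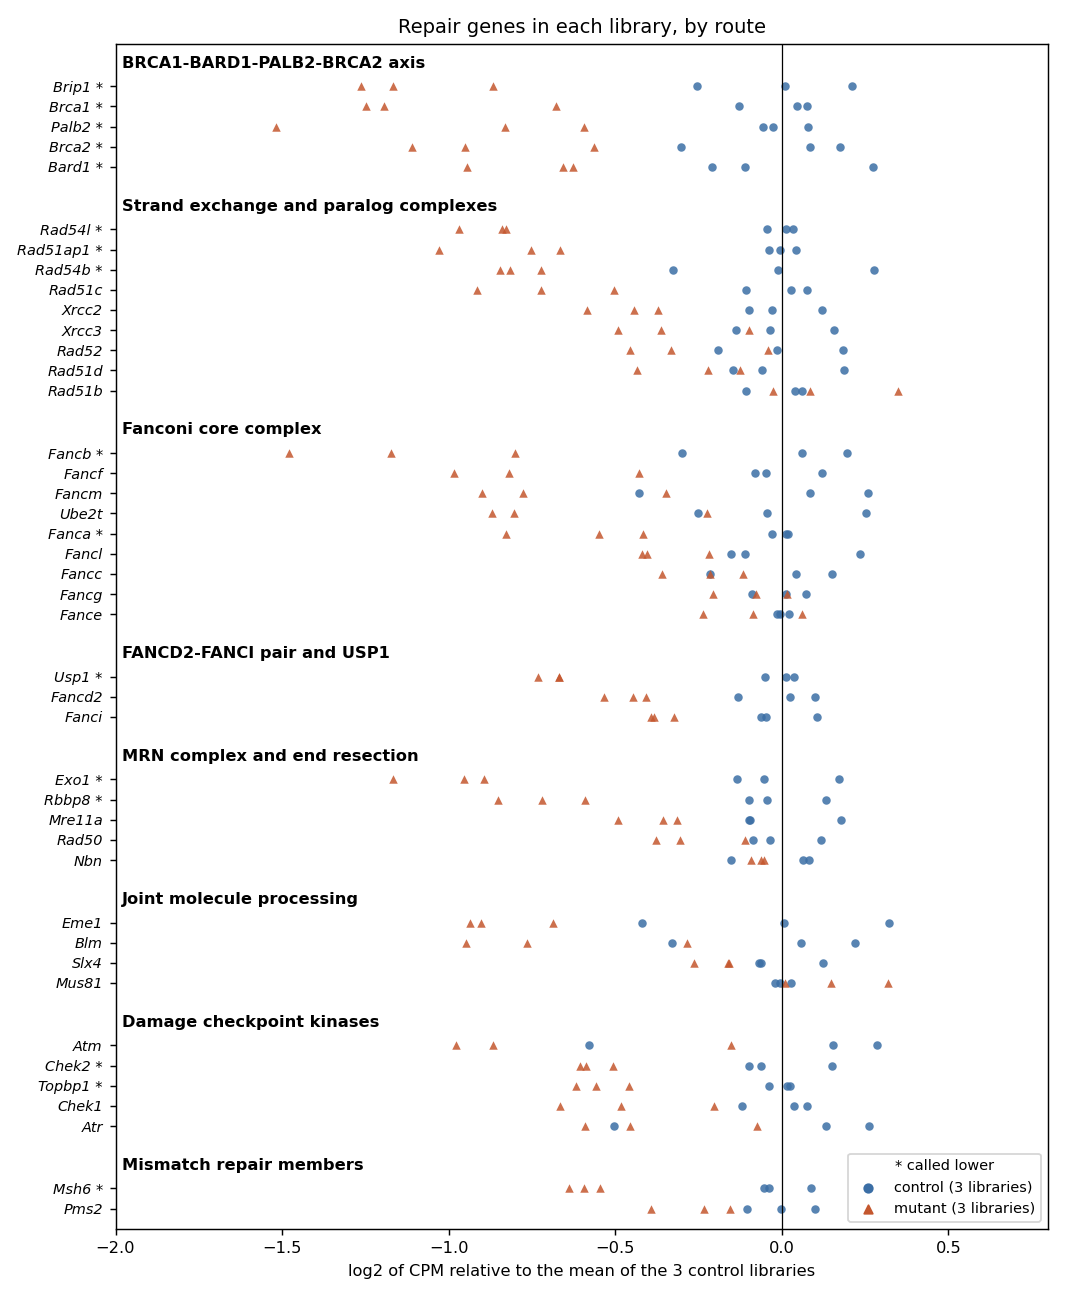
Level of each of the 42 repair genes in each library, as log2 of CPM relative to the mean of the 3 control libraries (x axis), with genes in rows by repair route. Circles are control and triangles mutant libraries, and an asterisk marks the 16 genes called lower. In the BRCA1-BARD1-PALB2-BRCA2 axis all triangles lie left of all circles, whereas for *Rad51b* and *Mus81* they lie among or to the right of them.

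The promoter sequences of the BRCA1-BARD1-PALB2-BRCA2 axis are shown first, since all 5 genes of this route fell, and that of *Mus81* stands beside them as a gene that did not. Each is the RefSeq window from 250 bases before to 50 bases after the gene's start (GRCm38.p6), written 5′ to 3′ along the gene. Capitals mark, on either strand, the letters TTCCCGC or one of their variants TTGGCGC and TTCGCGC, as well as the variant TTGCCGC, which are of the kind bound by E2F factors, which help to switch on genes for DNA replication as cells enter S phase. The windows lie at chr11:101551906-101552205, minus strand (*Brca1*), chr1:71102923-71103222, minus strand (*Bard1*), chr5:150522371-150522670, plus strand (*Brca2*), chr11:86201144-86201443, minus strand (*Brip1*), chr7:122132897-122133196, minus strand (*Palb2*) and chr19:5488330-5488629, minus strand (*Mus81*).
Brca1: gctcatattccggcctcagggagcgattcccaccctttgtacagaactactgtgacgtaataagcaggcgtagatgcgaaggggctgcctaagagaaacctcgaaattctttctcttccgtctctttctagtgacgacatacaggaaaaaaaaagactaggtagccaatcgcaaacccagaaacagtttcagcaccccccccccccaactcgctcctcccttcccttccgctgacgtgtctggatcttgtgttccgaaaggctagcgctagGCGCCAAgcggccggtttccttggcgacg
Bard1: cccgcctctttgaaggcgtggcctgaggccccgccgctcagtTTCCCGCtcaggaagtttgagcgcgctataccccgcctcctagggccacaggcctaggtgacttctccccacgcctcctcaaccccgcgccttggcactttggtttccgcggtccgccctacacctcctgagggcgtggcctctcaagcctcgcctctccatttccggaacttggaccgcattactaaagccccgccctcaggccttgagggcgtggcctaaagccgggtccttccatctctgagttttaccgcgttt
Brca2: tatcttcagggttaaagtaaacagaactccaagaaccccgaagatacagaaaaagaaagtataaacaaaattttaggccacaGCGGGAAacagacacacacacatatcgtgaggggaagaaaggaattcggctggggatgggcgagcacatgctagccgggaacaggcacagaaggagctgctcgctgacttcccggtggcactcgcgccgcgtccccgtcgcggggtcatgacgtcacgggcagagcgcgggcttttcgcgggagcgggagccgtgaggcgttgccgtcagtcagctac
Brip1: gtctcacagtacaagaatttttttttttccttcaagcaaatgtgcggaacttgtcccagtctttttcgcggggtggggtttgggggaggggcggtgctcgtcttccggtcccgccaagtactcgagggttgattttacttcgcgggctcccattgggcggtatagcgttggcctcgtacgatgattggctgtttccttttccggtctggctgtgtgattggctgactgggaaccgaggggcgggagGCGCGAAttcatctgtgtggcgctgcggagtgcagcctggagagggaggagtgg
Palb2: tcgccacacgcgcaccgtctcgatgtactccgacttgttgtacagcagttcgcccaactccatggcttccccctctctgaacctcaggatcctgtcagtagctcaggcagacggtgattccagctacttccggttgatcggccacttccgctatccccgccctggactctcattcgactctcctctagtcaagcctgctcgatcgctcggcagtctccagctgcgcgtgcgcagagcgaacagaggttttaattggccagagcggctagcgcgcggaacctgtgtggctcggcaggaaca
Mus81: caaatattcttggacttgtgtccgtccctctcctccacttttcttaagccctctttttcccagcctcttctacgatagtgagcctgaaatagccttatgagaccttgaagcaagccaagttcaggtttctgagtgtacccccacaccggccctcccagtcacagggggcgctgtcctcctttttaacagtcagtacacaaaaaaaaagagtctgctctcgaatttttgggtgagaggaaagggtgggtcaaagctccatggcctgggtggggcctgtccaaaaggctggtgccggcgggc
The match began at position 21 relative to the start in *Brca1*, −208 in *Bard1*, −168 in *Brca2* and −4 in *Brip1*. *Palb2* and *Mus81* hold none of these letters in the window, which says nothing about whether the factor binds there.

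E2F-type letters were common in the promoters of the repair genes. A window was given for 33 of the 42 genes, and 20 of these 33 (60.6%) held at least 1 match. The share was 18.9% of the 11404 tested protein-coding genes with a window and 10.9% of all 27025 genes with a window. The median log2 fold change was −0.63 in the 20 genes with a match and −0.35 in the 13 without. Of them 9 and 3 were called lower (3.63% of all tested genes). The called genes *Usp1*, *Exo1*, *Rbbp8* and *Rad54b* had no window and are in neither count. CCAAT, on either strand, stood in 63.6% of the 33 windows and 42.6% of those of tested coding genes. The letters TTTGAA or TTCGAA, of the kind found in promoters active in G2 and mitosis, stood in 12.1% against 16.2%. E-box letters of the kind bound by ATOH1, searched on both strands as CAGCTG and as the pair CAGATG with its reverse complement CATCTG, stood in 21.2% against 29.4%. These shares are descriptions of the letters, and the motifs were not tested for a part in the fold changes.

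The BRCA1-BARD1-PALB2-BRCA2 axis fell most of the 8 routes by its median. All 5 of its genes were called lower, the median log2 fold change was −0.94, and the summed level went from 121, 137 and 128 CPM in the controls to 60.4, 82.2 and 62.2 CPM in the mutants (53.0% of the control mean). Mutant replicate 2 was the highest of the mutants for this route and still lay below all 3 controls.

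*Brca1* (ENSMUSG00000017146, chr11:101488764-101551955, minus strand), the ubiquitin ligase that directs breaks to recombination, stood at 41.6, 47.9 and 47.0 CPM in the controls and 19.1, 28.4 and 19.9 CPM in the mutants. Its log2 fold change was −1.02 (SE 0.14, edgeR adjusted p = 0.00075), a level 50.6% lower. *Bard1* (ENSMUSG00000026196, chr1:71027498-71103146, minus strand), the partner that holds BRCA1 stable, stood at 25.2, 19.3 and 18.0 CPM in the controls and 13.5, 13.2 and 10.8 CPM in the mutants. Both partners of the ligase were lower in every mutant library than in any control, as were 20.1% of all tested genes. The smaller fall was in *Bard1* (log2 fold change −0.74, SE 0.14, edgeR adjusted p = 0.00453).

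*Palb2* (ENSMUSG00000044702, chr7:122107262-122132985, minus strand), the bridge between BRCA1 and BRCA2, had 132, 142 and 131 counts in the controls and 53, 89 and 79 counts in the mutants. At this depth its log2 fold change of −0.94 carried an SE of 0.21 and an edgeR adjusted p of 0.00978, just inside the threshold. *Brca2* (ENSMUSG00000041147, chr5:150522630-150570329, plus strand), which acts at the start of strand exchange, stood at 34.1, 47.5 and 44.6 CPM in the controls and 19.5, 28.4 and 21.7 CPM in the mutants (log2 fold change −0.86, SE 0.16, edgeR adjusted p = 0.00315). For both genes mutant replicate 2 was the highest mutant, and in *Brca2* control replicate 1 was the lowest control. *Brip1* (ENSMUSG00000034329, chr11:86058138-86201193, minus strand), a helicase that binds BRCA1 and is also the Fanconi gene FANCJ, stood at 11.7, 13.5 and 9.76 CPM in the controls and 5.19, 6.39 and 4.86 CPM in the mutants (log2 fold change −1.09, SE 0.16, edgeR adjusted p = 0.00118).

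The calls of *Brca1* and *Brip1* held without each library in turn, and those of the other 3 genes did not. *Bard1* missed the threshold without control replicate 1, control replicate 2, mutant replicate 1 or mutant replicate 3 (edgeR adjusted p 0.0111 to 0.0218), *Brca2* without control replicate 2, control replicate 3, mutant replicate 1 or mutant replicate 3 (0.0129 to 0.0169), and *Palb2* without any library but mutant replicate 2 (0.0169 to 0.0381).

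**Figure D2:**
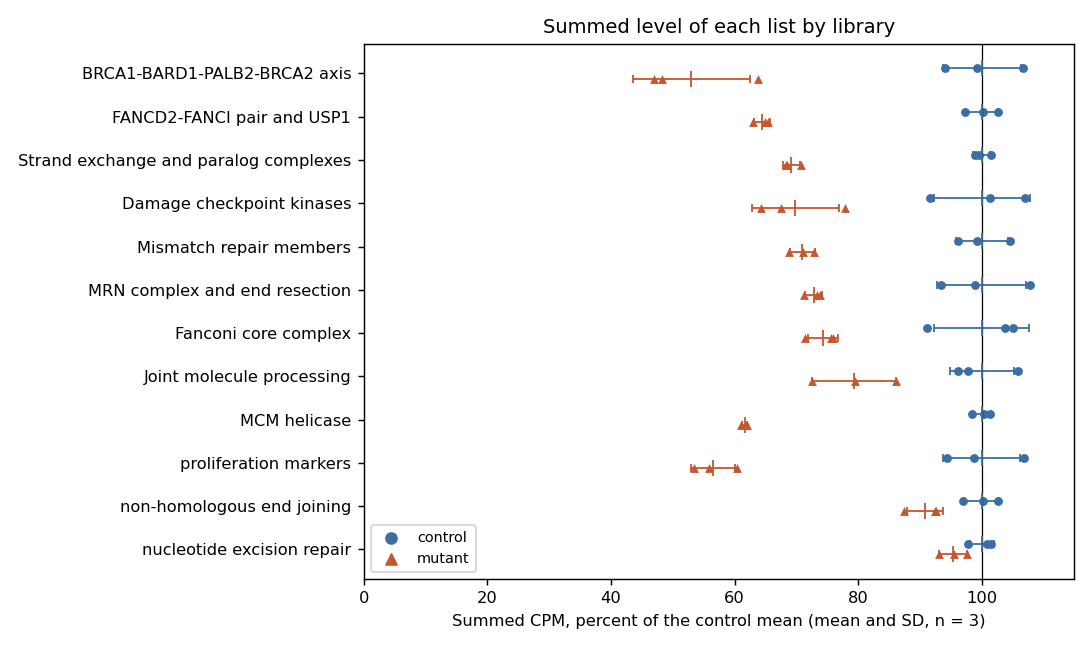
Summed CPM of each list in each library, in percent of the mean of the 3 control libraries (x axis), for the 8 repair routes and 4 reference lists. Circles are control and triangles mutant libraries, ticks and bars give the mean and SD of 3 libraries. The BRCA1-BARD1-PALB2-BRCA2 axis has a mutant mean of 53.0% and nucleotide excision repair one of 95.4%.

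Among the genes of strand exchange and the paralog complexes, 3 of 9 were called lower, and the median log2 fold change was −0.46. These 3 act in strand invasion, and none of *Rad51b*, *Rad51c*, *Rad51d*, *Xrcc2* and *Xrcc3* was among them. *Rad54l*, a motor protein of strand invasion, stood at 17.7, 18.7 and 18.4 CPM in the controls and 9.34, 10.3 and 10.2 CPM in the mutants (log2 fold change −0.88, SE 0.10, edgeR adjusted p = 0.000198). *Rad51ap1*, which stabilises the joint between the strands, stood at 42.3, 43.3 and 44.7 CPM in the controls and 21.3, 27.4 and 25.8 CPM in the mutants (log2 fold change −0.81, SE 0.10, edgeR adjusted p = 0.000361). *Rad54b*, the relative of RAD54L, stood at 8.66, 13.2 and 10.8 CPM in the controls and 6.17, 6.58 and 6.04 CPM in the mutants (log2 fold change −0.79, SE 0.16, edgeR adjusted p = 0.00627). The control libraries of *Rad54b* were spread more widely than those of the other 2. *Rad54b* shares exon sequence with *Fsbp* on the same strand (log2 fold change −0.40) and overlaps *Gm11832* on the opposite strand (−0.74, 14 to 39 counts per library). Neither *Fsbp* nor *Gm11832* was called. The call of *Rad54b* was lost without any library but control replicate 1 (edgeR adjusted p 0.0105 to 0.026).

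The latter 5 genes encode related proteins that form paralog complexes and assist strand exchange. *Rad51c*, common to both paralog complexes, stood at 6.57, 5.99 and 6.81 CPM in the controls and 4.56, 3.91 and 3.43 CPM in the mutants. The groups did not overlap, and the log2 fold change was −0.70 (SE 0.17, edgeR adjusted p = 0.0129), past the fold threshold and short of the p threshold. *Xrcc2* was at 13.0, 13.6 and 15.1 CPM in the controls and 10.7, 9.25 and 10.2 CPM in the mutants (log2 fold change −0.46, SE 0.11, edgeR adjusted p = 0.0141). *Rad51b* differed in direction from its route: it was at 3.71, 4.17 and 4.11 CPM in the controls and 3.92, 5.08 and 4.24 CPM in the mutants, and the groups overlapped (log2 fold change 0.14, SE 0.18, edgeR adjusted p = 0.609).

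*Rad51d* and *Rad52*, an annealing protein, each had a log2 fold change of −0.26 with overlapping groups (edgeR adjusted p = 0.193 and 0.196). *Xrcc3* had the highest level per length of the route, 11.8 ± 1.24 FPKM in the controls (fragments scaled by gene length and library total, SD, n = 3). Its log2 fold change was −0.31 (SE 0.12, edgeR adjusted p = 0.0825), with 36.5, 29.7 and 31.9 CPM in the controls and 30.5, 23.3 and 25.4 CPM in the mutants. Its exons overlap those of *Klc1* on the opposite strand, which had 7933 to 9966 counts per library, and reads of the 2 genes may be mixed, since the sources do not say whether strand was used in counting.

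In the Fanconi core complex and its partners, 2 of 9 genes were called lower, 9 of 9 had a fold change below 0, and the median log2 fold change was −0.59. *Fancb* (X chromosome), a scaffold of the catalytic part of the complex, had the lowest fold change of all 42 genes. It was at 6.51, 7.16 and 5.07 CPM in the controls and 2.77, 3.58 and 2.24 CPM in the mutants (log2 fold change −1.13, SE 0.22, edgeR adjusted p = 0.00472), with 36 to 110 counts per library. *Fanca*, which forms another module of the complex with FANCG, was at 33.9, 34.9 and 35.0 CPM in the controls and 25.9, 23.7 and 19.5 CPM in the mutants (log2 fold change −0.59, SE 0.10, edgeR adjusted p = 0.00287). In neither gene did the groups overlap (20.1% of all tested genes were lower without overlap). The call of *Fancb* was lost without control replicate 1, control replicate 2, mutant replicate 1 or mutant replicate 3 (edgeR adjusted p 0.0166 to 0.0239). That of *Fanca* was lost without control replicate 2 (adjusted p = 0.0119), control replicate 3 (0.0133) or mutant replicate 3, where its edgeR adjusted p was 0.00854 and its log2 fold change −0.48.

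*Fancl*, the ubiquitin ligase subunit of the core complex, passed neither threshold (log2 fold change −0.35, SE 0.15, edgeR adjusted p = 0.113). *Ube2t*, the enzyme that hands it ubiquitin, passed the fold threshold and not the p threshold (log2 fold change −0.60, SE 0.21, edgeR adjusted p = 0.0658). *Fancf*, an adaptor of the complex, was at 8.33, 9.37 and 8.15 CPM in the controls and 6.40, 4.89 and 4.36 CPM in the mutants, without overlap (log2 fold change −0.72, SE 0.17, edgeR adjusted p = 0.0119). *Fancm*, the motor that anchors the complex to DNA, was at 33.8, 54.4 and 48.2 CPM in the controls and 24.3, 35.7 and 26.5 CPM in the mutants (log2 fold change −0.66, SE 0.18, edgeR adjusted p = 0.025). Here control replicate 1 lay below mutant replicate 2. *Fancm* passed both thresholds with DESeq2 (adjusted p = 0.000502), without control replicate 1 (edgeR adjusted p = 0.00476) and without mutant replicate 2 (edgeR adjusted p = 0.00544), and *Fancf* did without mutant replicate 1 (edgeR adjusted p = 0.00683). *Fance* had the highest level per length of the route at 7.53 ± 0.10 FPKM, and with *Fancg* and *Fancc* it was among the genes with the smallest differences: the log2 fold changes were −0.08, −0.09 and −0.23, and the groups overlapped in all 3 (edgeR adjusted p = 0.57, 0.548 and 0.188). The subunits of the core complex were thus measured at unequal fold changes, from −1.13 in *Fancb* to −0.08 in *Fance*, and differences between genes of the complex were not tested.

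The FANCD2-FANCI pair is the target of the core complex, and USP1 takes its ubiquitin off again. *Usp1* had the highest level per length of all 42 genes, 39.2 ± 1.19 FPKM in the controls, and the smallest p. It stood at 149, 151 and 142 CPM in the controls and 88.9, 92.8 and 92.8 CPM in the mutants (log2 fold change −0.69, SE 0.05, edgeR adjusted p = 1.81e-05), a level 38.0% lower. *Fancd2* was at 21.2, 24.8 and 23.6 CPM in the controls and 17.0, 17.5 and 16.0 CPM in the mutants. Its log2 fold change of −0.46 (SE 0.09) passed the p threshold (edgeR adjusted p = 0.00514) and not the fold threshold. Without control replicate 1 it passed both (log2 fold change −0.52, edgeR adjusted p = 0.00622). *Fanci* was at 14.3, 12.7 and 12.8 CPM in the controls and 10.1, 10.2 and 10.6 CPM in the mutants, again without overlap (log2 fold change −0.37, SE 0.10, edgeR adjusted p = 0.0284). All 3 genes of this step were lower in every mutant library than in every control library, as were 20.1% of all tested genes.

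At the start of the route, 2 of the 5 genes of the MRN complex and end resection fell, and both act after the MRN complex has bound. *Exo1*, the exonuclease of long-range resection, was at 28.1, 34.8 and 29.8 CPM in the controls and 16.6, 13.8 and 15.9 CPM in the mutants (log2 fold change −1.0, SE 0.11, edgeR adjusted p = 0.000204). *Rbbp8*, which encodes CtIP, was at 29.5, 26.0 and 25.1 CPM in the controls and 16.3, 17.9 and 14.9 CPM in the mutants (log2 fold change −0.72, SE 0.10, edgeR adjusted p = 0.000803). None of the 3 genes of the MRN complex itself was called. *Mre11a*, its nuclease, was at 32.5, 39.3 and 32.4 CPM in the controls and 24.7, 28.0 and 27.2 CPM in the mutants (log2 fold change −0.39, SE 0.10, edgeR adjusted p = 0.0175). *Rad50* had a log2 fold change of −0.26 (SE 0.10, edgeR adjusted p = 0.0893). *Nbn*, the subunit that recruits ATM, had the highest level per length of the route (11.5 ± 1.01 FPKM), with 30.7, 31.1 and 26.5 CPM in the controls and 28.4, 28.2 and 27.6 CPM in the mutants (log2 fold change −0.07, SE 0.09, edgeR adjusted p = 0.597).

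Of the 4 genes that undo joint molecules, edgeR called 0, DESeq2 called 2 lower (*Eme1* and *Blm*), and 3 had an unadjusted p under 0.05. *Eme1*, the regulatory partner in the MUS81 nuclease, was at 8.53, 10.6 and 6.36 CPM in the controls and 4.44, 5.28 and 4.55 CPM in the mutants (log2 fold change −0.84, SE 0.20, edgeR adjusted p = 0.0122). Its catalytic partner *Mus81* was at 14.6, 14.1 and 14.3 CPM in the controls and 15.9, 14.4 and 17.9 CPM in the mutants (log2 fold change 0.16, SE 0.10, edgeR adjusted p = 0.284). The partners of this enzyme thus had fold changes of opposite sign, neither of them called. Exons of *Mus81* overlap those of *Efemp2* on the opposite strand (273 to 457 counts per library, log2 fold change 0.29). Exons of *Eme1* likewise overlap those of *Lrrc59* (2258 to 2571 counts per library), so reads may be mixed in both cases. *Eme1* passed both thresholds with DESeq2 (log2 fold change −0.83, adjusted p = 0.00493) and without control replicate 3 (log2 fold change −1.01, edgeR adjusted p = 0.00571). *Blm*, the helicase that dissolves double junctions, was at 35.1, 51.4 and 45.9 CPM in the controls and 22.9, 36.2 and 26.0 CPM in the mutants, with control replicate 1 below mutant replicate 2 (log2 fold change −0.64, SE 0.18, edgeR adjusted p = 0.025, and 0.00242 without mutant replicate 2). With DESeq2 the adjusted p of *Blm* was 0.000601. *Slx4*, a nuclease scaffold and the gene with the highest level per length here (6.34 ± 0.487 FPKM), had a log2 fold change of −0.19 (SE 0.08, edgeR adjusted p = 0.0987).

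Of the checkpoint genes, *Topbp1* and *Chek2* were called lower, and the 2 apical kinases were not. *Topbp1*, the activator of ATR, was at 148, 148 and 142 CPM in the controls and 99.1, 106 and 95.1 CPM in the mutants (log2 fold change −0.54, SE 0.05, edgeR adjusted p = 0.000127). *Chek2*, the kinase downstream of ATM, was at 11.1, 12.8 and 10.8 CPM in the controls and 8.13, 7.69 and 7.60 CPM in the mutants (log2 fold change −0.57, SE 0.12, edgeR adjusted p = 0.00747). Its call was lost without each of the 6 libraries in turn (edgeR adjusted p 0.0152 to 0.0352) and with DESeq2 (adjusted p = 0.0148). *Chek1*, the kinase downstream of ATR, was at 17.1, 19.1 and 19.6 CPM in the controls and 16.1, 13.3 and 11.7 CPM in the mutants (log2 fold change −0.44, SE 0.13, edgeR adjusted p = 0.0296). *Atm* and *Atr*, the kinases that sense breaks and stalled forks, had overlapping groups and log2 fold changes of −0.62 (SE 0.25, edgeR adjusted p = 0.0961) and −0.36 (SE 0.19, edgeR adjusted p = 0.203). Their SEs were wide beside those of the other checkpoint genes, and the libraries behind that spread are given further on.

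Of the mismatch repair genes on the list, *Msh6*, which helps to recognise mispaired bases, was at 79.5, 78.7 and 86.8 CPM in the controls and 54.0, 52.5 and 55.9 CPM in the mutants (log2 fold change −0.59, SE 0.06, edgeR adjusted p = 0.000144). *Pms2*, of the complex that cuts the mispaired strand, had a log2 fold change of −0.26 (SE 0.09, edgeR adjusted p = 0.0687). *Pms2* shares exon sequence with *Rsph10b* on the same strand. Besides *Rad54b*, the called genes *Msh6*, *Fanca* and *Rad54l* overlap exons of *Fbxo11*, *Zfp276* and *Lrrc41* on the opposite strand. The log2 fold changes of *Fbxo11*, *Zfp276* and *Lrrc41* were −0.13, 0.006 and 0.03 and passed no threshold.

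The order of the 42 genes by level per length was led in the controls by *Usp1*, *Msh6* (19.0 ± 1.04 FPKM) and *Topbp1* (12.9 ± 0.302 FPKM), and ended with *Atr* (1.44 ± 0.374 FPKM), *Palb2* (1.18 ± 0.0596 FPKM) and *Rad51b* (1.05 ± 0.0662 FPKM). The level of *Xrcc3* lay within 1 of its own SDs of those of *Topbp1* and *Nbn*, its neighbours in the order, whereas *Usp1* and *Msh6* stood apart from each other and from the rest. Counts per library ran from 36 to 2322 over the genes, and the genes with the widest SEs include those with the fewest counts, such as *Fancb* and *Palb2*.

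**Figure D3:**
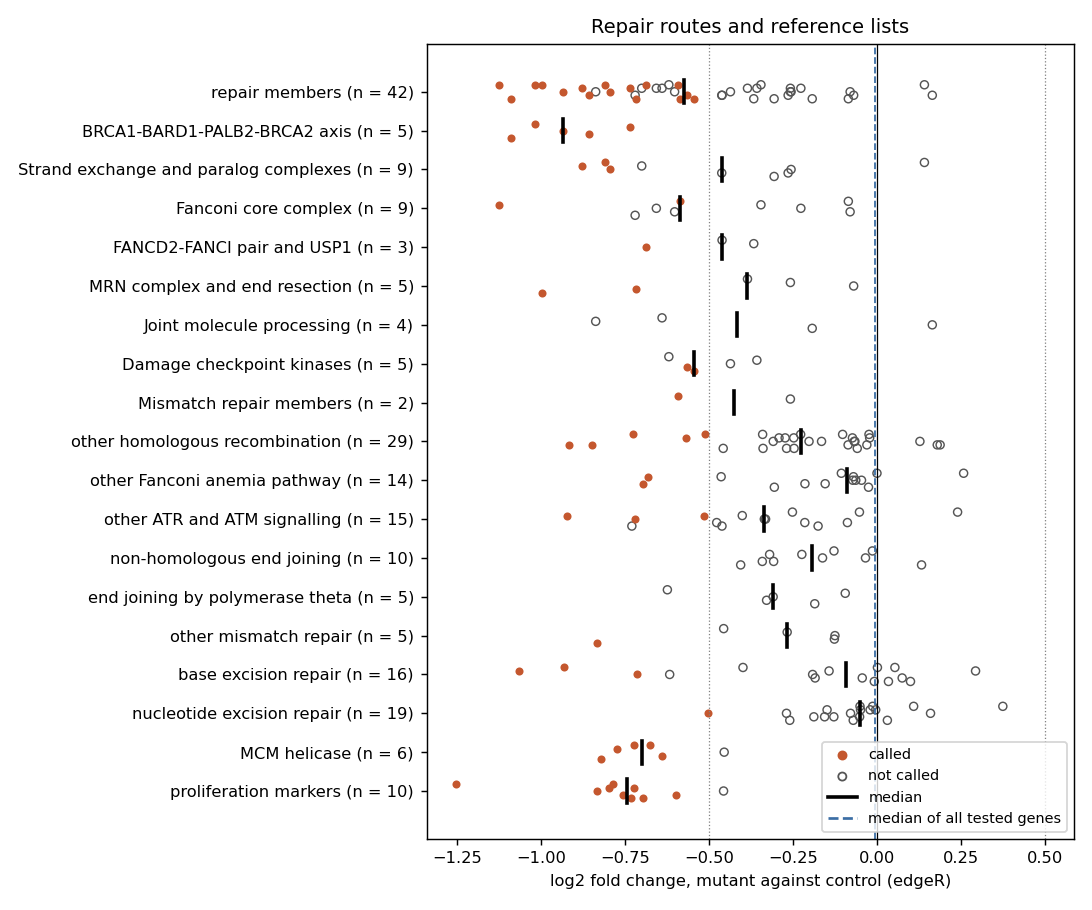
Log2 fold change of each tested gene, mutant against control (x axis, edgeR), for the 42 repair genes, their 8 routes and the reference lists in rows. Filled points passed both thresholds, open points did not, black bars are medians, the dashed line is the median of all tested genes and dotted lines stand at the fold thresholds of −0.5 and 0.5. Filled points take all 5 places in the BRCA1-BARD1-PALB2-BRCA2 axis and 1 of 19 in nucleotide excision repair.

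Of 58 further genes of homologous recombination, the Fanconi pathway and ATR and ATM signalling, 10 were called lower and 0 higher (8 and 0 with DESeq2), 2 had a higher level at an unadjusted p under 0.05, and their median log2 fold change was −0.22, nearer to 0 than that of the 42 genes. By pathway the median was −0.23 in homologous recombination, −0.09 in the Fanconi pathway and −0.34 in ATR and ATM signalling. In homologous recombination 5 of 29 fell. *Dna2*, a resection nuclease, had a log2 fold change of −0.92 (SE 0.11, edgeR adjusted p = 0.00038), and *Gen1*, a resolvase, one of −0.51 (SE 0.10, edgeR adjusted p = 0.00597). Of 14 further Fanconi genes 2 fell, *Rfwd3* (log2 fold change −0.68, SE 0.05, edgeR adjusted p = 3.0e-05) and *Rad18* (−0.70, SE 0.08, edgeR adjusted p = 0.00032), both ubiquitin ligases of replication repair. Of 15 further genes of ATR and ATM signalling 3 fell: *Clspn* (log2 fold change −0.92), which carries the signal from ATR to CHK1, *Timeless* (−0.72), which travels with the replication fork, and *Etaa1* (−0.51), another ATR activator.

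Meiotic recombination aside, medians of the other repair routes ran from −0.31 in end joining by polymerase theta to −0.05 in nucleotide excision repair. In non-homologous end joining 0 of 10 genes were called in either direction by edgeR or DESeq2, 3 had an unadjusted p under 0.05 (37.1% of all tested genes did), and the median log2 fold change was −0.19. Its summed level was 90.8% of the control mean, beside 69.2% for the 42 genes. End joining by polymerase theta had 0 of 5 called by either tool, 4 with an unadjusted p under 0.05, and a median of −0.31. In nucleotide excision repair 1 of 19 fell (*Uvssa*, log2 fold change −0.50, not called by DESeq2), with a median of −0.05, and in base excision repair 3 of 16 (*Ung*, *Neil3* and *Mbd4*, log2 fold changes −0.93, −1.07 and −0.72), with a median of −0.09. Further mismatch repair genes had 1 of 5 called (*Pms1*, −0.83) and a median of −0.27. Differences between these lists were not tested. Of 15 genes of meiotic recombination, a process of germ cells, 8 passed the filter on low counts, 0 were called by edgeR or DESeq2, 1 had an unadjusted p under 0.05, and the median was −0.34.

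Genes of replication and cell division fell in the same comparison. All 6 genes of the MCM helicase, which opens DNA at replication origins, passed the p threshold and 5 were called lower, with summed levels of 785, 777 and 763 CPM in the controls and 480, 479 and 474 CPM in the mutants (61.6% of the control mean). Of 10 proliferation markers 9 were called lower, with a summed level of 56.5%. The summed level of the 42 repair genes was 1.53, 1.69 and 1.64 times that of the MCM genes in the controls and 1.76, 1.91 and 1.79 times in the mutants. Relative to the MCM genes the repair genes were higher in each mutant library than in any control. The BRCA1-BARD1-PALB2-BRCA2 axis stood at 0.154, 0.177 and 0.168 of the MCM sum in the controls and at 0.126, 0.172 and 0.131 in the mutants, with overlapping groups. 4 of the 42 genes (*Rad51ap1*, *Usp1*, *Exo1* and *Blm*) are on a widely used list of S phase genes, from the Seurat package, and the other 38 had 13 called lower and a median log2 fold change of −0.50.

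Markers of the cells in the tissue moved in the same comparison. All 6 GNP markers were called lower, with a summed level of 860 to 946 CPM in the controls and 282 to 305 CPM in the mutants (32.7%), and *Atoh1*, the factor that specifies GNPs, went from 30.9 to 32.6 CPM down to 0.249 to 0.577 CPM. Granule neuron markers fell in 4 of 7 genes, and their summed level was 62.4% of the control mean. The study reports *Pax6*, which is on this list, in GNPs too, so the list does not mark granule neurons alone. Purkinje cell markers rose in 4 of 7 genes, to a summed level of 149.9%, and markers of the oligodendrocyte lineage rose in 5 of 7, of astrocytes and Bergmann glia in 3 of 6, of GABAergic cells in 3 of 6 (1 other, *Ptf1a*, fell), of meninges in 2 of 5 and of microglia in 1 of 5. Of the oligodendrocyte markers 1 was lower at an edgeR adjusted p under 0.01, with a log2 fold change of −0.45, short of the fold threshold. Endothelial and erythrocyte markers had 0 of 6 and 0 of 5 called by edgeR or DESeq2, and 0 with an unadjusted p under 0.05. Of 7 midbrain and hindbrain genes 2 passed the filter and 1 (*En1*) was called lower. Choroid plexus markers were uneven, with a summed level of 128 to 195 CPM in the controls and of 216, 33.3 and 766 CPM in the mutants, and 1 of 5 (*Otx2*) was called lower. The part of the cell makeup in the falls of the repair genes was not tested.

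The samples were checked against their labels in 4 genes. Total counts per library lay between 15391854 and 17178478. *Tox3* was at 63.0 to 64.4 CPM in the controls and 55.3 to 63.2 CPM in the mutants, which overlap, so a count summed over the whole gene, including exons outside the deleted part, does not check the label of a library. *Xist*, the RNA of the inactive X, was high in control replicates 2 and 3 and mutant replicate 2, and the Y-linked *Ddx3y* was counted in control replicate 1 and mutant replicates 1 and 3 and at 0 in the others. The libraries thus split into 3 with *Xist* and 3 with Y-linked counts, unevenly between the groups.

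Several repair genes differed with this split. A term for the split, fitted beside the genotype, passed an edgeR adjusted p of 0.01 in 5 of the 42 genes, where 3.12% of all tested genes did, and all 5 were higher in the libraries with *Xist*. *Atm* was at 39.0, 35.6 and 28.8 CPM in the 3 libraries with *Xist* and 21.4, 17.5 and 16.3 CPM in the 3 with Y-linked counts, and its log2 difference, Y-linked minus *Xist* libraries, was −0.78 (edgeR adjusted p = 2.31e-05). The same difference was −0.57 in *Atr* (edgeR adjusted p = 0.000632), −0.55 in *Fancm* (0.000409), −0.52 in *Blm* (0.000761) and −0.45 in *Brca2* (0.00241). All 5 genes are autosomal. Of 16905 autosomal genes tested, 502 passed this threshold, 498 of them higher in the libraries with *Xist*, so the 5 belong to a wider one-sided difference. The split was read from the counts and not from the labels, and sex and anything else that differs with it cannot be told apart.

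**Figure D4:**
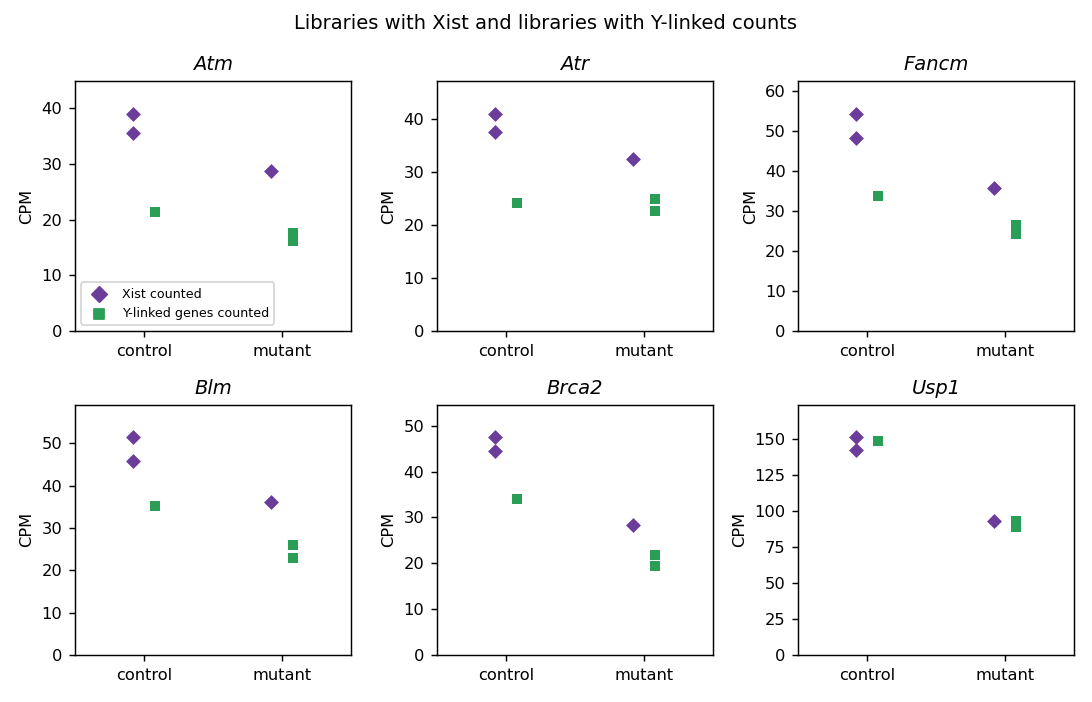
CPM (y axes, from 0) of 6 repair genes in each control and mutant library, with diamonds for the 3 libraries in which *Xist* was counted at a high level and squares for the 3 with counts of Y-linked genes. In *Atm*, *Atr*, *Fancm*, *Blm* and *Brca2* the diamonds lie above the squares within each group, and in *Usp1* they do not separate.

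With the Y-linked level as a covariate, 20 of the 42 genes were called lower (3.96% of all tested genes) and 24 passed the p threshold (10.5% of all tested genes). *Fancm* (log2 fold change −0.50, edgeR adjusted p = 0.000177) and *Blm* (−0.50, edgeR adjusted p = 0.00024) were then called. *Atm* passed the p threshold alone (log2 fold change −0.40, edgeR adjusted p = 0.00192), whereas *Atr* did not (−0.18, edgeR adjusted p = 0.121). Within the libraries with *Xist* alone, the log2 ratio of mutant to control was −0.37 in *Atm*, −0.52 in *Fancm*, −0.42 in *Blm* and −0.69 in *Brca2*, and within those with Y-linked counts it was −0.34, −0.41, −0.52 and −0.72. In *Atr* it was −0.27 and −0.02. These ratios rest on 3 libraries each and carry no test. A genotype difference that itself differed with the split was found for 3 of the 42 genes at an unadjusted edgeR p under 0.05 (3.62% of all tested genes). In that fit control replicate 1 was the only control with Y-linked counts, and mutant replicate 2 the only mutant with *Xist*. It therefore cannot show whether the genotype difference was the same on both sides of the split.

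Some repair genes start head to head with another gene, here meaning close by on the opposite strand, whether or not their exons overlap. The RNA level of that neighbour is given beside theirs. By a rule chosen after the data were seen (a protein-coding gene on the opposite strand whose start lies within 1000 bp), 16 of the 42 genes had such a neighbour, and all 16 neighbours were tested. 1 neighbour was called lower and 0 were called higher. The median log2 fold change was −0.01 for the neighbours and −0.66 for the 16 repair genes beside them.

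*Brca1* lies 194 bp from the start of *Nbr1*, which was at 164, 162 and 154 CPM in the controls and 164, 162 and 164 CPM in the mutants (log2 fold change 0.03, SE 0.05, edgeR adjusted p = 0.651). *Palb2* lies 56 bp from *Dctn5*, which was at 64.1, 65.0 and 59.6 CPM in the controls and 62.2, 61.4 and 64.8 CPM in the mutants (log2 fold change −0.002, SE 0.06, edgeR adjusted p = 0.985). *Fancd2* lies 30 bp from *Emc3*, whose log2 fold change was 0.06 (SE 0.05, edgeR adjusted p = 0.41). None of these 3 neighbours was called. Of the repair genes beside them *Brca1* and *Palb2* were called and *Fancd2* was not. In all 3 repair genes every mutant library lay below every control (20.1% of all tested genes). Differences between a repair gene and its neighbour were not tested. The neighbour that fell was *Gas2* beside *Fancf*, from 16.1, 16.9 and 16.1 CPM in the controls to 12.2, 8.54 and 8.91 CPM in the mutants (log2 fold change −0.73, SE 0.14, edgeR adjusted p = 0.00415). The exons of *Gas2* and *Fancf* overlap on opposite strands, so their reads may be mixed, and the same holds for *Ankrd49* beside *Mre11a* and *Mrpl27* beside *Eme1*. *Npat*, beside *Atm*, had a log2 fold change of −0.32 (SE 0.12, edgeR adjusted p = 0.0866), and *Tex14*, beside *Rad51c*, one of −0.97 at a level under 3.1 CPM in every library (SE 0.34, edgeR adjusted p = 0.0641).

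**Figure D5:**
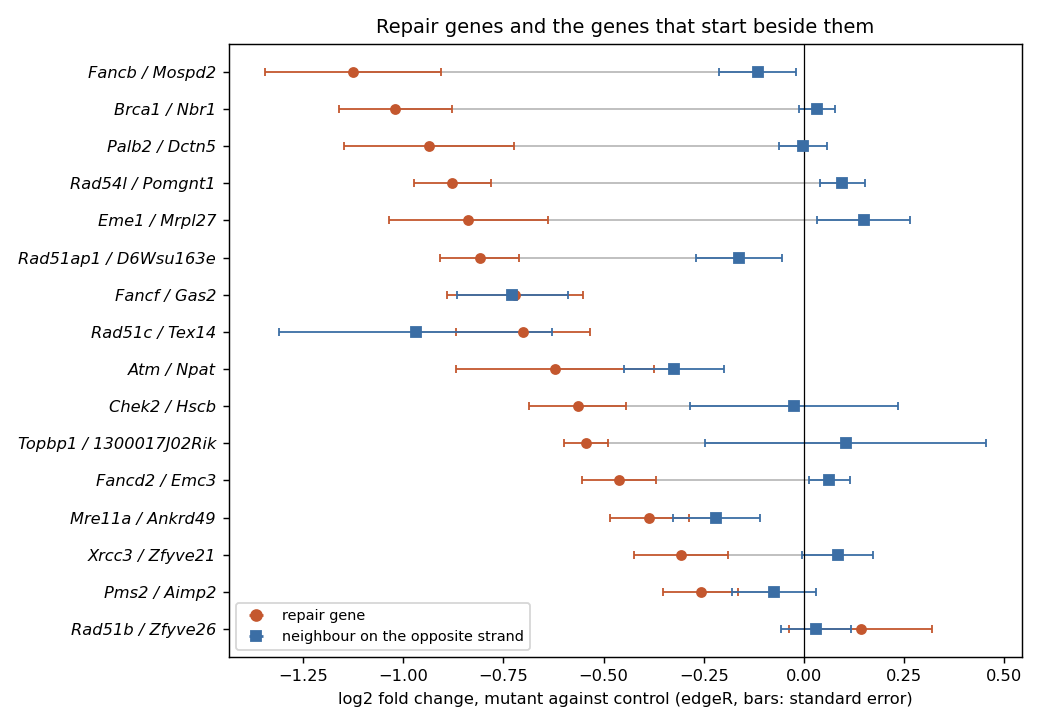
Log2 fold change, mutant against control (x axis, edgeR, bars are standard errors), of 16 repair genes (circles) and of the gene that starts beside each on the opposite strand (squares). Circles lie left of their squares in most pairs, for example −1.02 in *Brca1* against 0.03 in *Nbr1*, whereas *Fancf* and *Gas2* lie together at −0.72 and −0.73.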

How the data were processed

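Bulk poly(A) RNA of P1 cerebellum was measured in 6 samples, 3 labelled control and 3 labelled mutant, and samples were grouped by their labels alone. Counts and FPKM, both by gene, are the values the authors deposited, made per the submitters' processing notes with HISAT2 2.0.5 on mm10 and featureCounts 1.5.0-p3. The annotation release, strand setting and treatment of reads mapping to several places are not given in the sources used here. The authors derived FPKM from the counts, gene lengths and library totals. Columns of the authors' own comparison (fold changes and p-values) were not used.

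Fold changes, SEs and p-values came from the deposited counts, using edgeR 4.0.16 in R 4.3.3 (glmQLFTest after glmQLFit, TMM and filterByExpr, with Benjamini-Hochberg adjustment over 17505 genes). Following the study, a call needed an adjusted p below 0.01 with a log2 fold change of over 0.5 in size. CPM are counts scaled to a common TMM-corrected total. DESeq2 1.42.0, limma 3.58.1 on log2 of FPKM plus a pseudocount of 1 or 0.1, other scalings and filters, and fits without each library were alternatives. Scripts were tested on simulated data. Libraries of 1 group differed by more than sampling noise (chi-square per gene 3.67 to 10.2). Since 3 libraries face 3, the p-values borrow the spread from a fit across all genes. Intervals of single counts were not computed. Gene lists and routes were written by hand from textbook roles, and the members and lists were chosen with earlier results of these data known. Named were all members, with values per library for called genes, near misses, the highest level per length and genes against their route, and from every other list at most the 3 genes with the smallest p. The head-to-head rule, the tests of the split by Xist and the removal of a gene length trend were added after the data were seen. Exon overlaps and neighbours came from GENCODE vM21, whose coordinates equal those of the table for 98.3% of 54409 shared identifiers, and promoter windows from RefSeq on GRCm38.p6. Some genes of these lists were counted and are not reported here by name.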

Additional observations from a re-analysis of the deposited data

How the results depend on the processing

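The direction of the 42 repair genes held under nearly every alternative, while the number called moved with the test. Of 714 fold changes recomputed under the alternatives, 623 kept their direction and their side of the threshold, 64 lost the call, 26 gained it and 1 reversed (*Fance*, whose log2 fold change without 1 library ran from −0.16 to 0.00079, above 0 without mutant replicate 2). *Rad51ap1*, *Usp1* and *Msh6* kept the call under every alternative run. With limma on log2(FPKM + 1), log2(FPKM + 0.1) and log2(FPKM + 1) without a filter, 7, 8 and 3 repair genes were called lower, 8, 8 and 4 passed the p threshold, and all genes gave 360, 416 and 286 lower and 243, 297 and 176 higher calls. The median of the repair genes was −0.40 with a pseudocount of 1, filtered or not. Adding a constant shrinks the fold of genes at a few FPKM. With DESeq2, 18 repair genes were called lower. Without a filter on low counts 26 repair genes passed the p threshold. With the Y-linked covariate the median was −0.50. With a gene length trend removed, *Topbp1* fell short of the fold threshold at −0.49.

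Leaving out 1 library at a time gave 9 to 16 repair genes called lower, 9 to 17 past the p threshold, and a median of −0.59 to −0.49, with the fewest calls without control replicate 2 or mutant replicate 3. All genes gave 492 to 778 lower and 349 to 569 higher calls. An adjusted p under 0.05 with the fold threshold gave 838 higher calls over all genes, and 0.01 without it 1268 lower and 1147 higher. Same-numbered libraries deviated together in 2 of 3 pairs (r = 0.49 and 0.57 over 11101 genes) and not in the third (r = −0.39), so the numbers were not taken to pair them. Control replicate 1 also deviated with mutant replicate 3 (r = 0.59), and control replicate 3 with mutant replicate 2 (r = 0.42). Between the groups r was positive in every pair from the same side of the *Xist* split and negative in every pair from opposite sides. With the replicate block 20 repair genes were called lower and 22 passed the p threshold, with a median of −0.58.

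Depth limits the genes of low count: at 3 counts a library reads 0.173 to 0.196 CPM, and *Fancb* had as few as 36 counts.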
